A study of Mus musculus with 11 samples.

Results

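The 10 genes described here encode the enzymes that modify heparan sulfate: the N-deacetylase/N-sulfotransferases Ndst1 and Ndst2, the epimerase Glce, the 2-O-sulfotransferase Hs2st1, the 6-O-sulfotransferases Hs6st1 and Hs6st2, and the 3-O-sulfotransferases Hs3st1, Hs3st3a1, Hs3st3b1 and Hs3st6. They were taken by name from the 52550 genes of the deposited table, and the family was picked because Hs3st1 had higher values without Langerhans cells (LCs) in both sorted populations. The genotype values of Hs3st1 therefore describe the choice and carry no test. RNA was sequenced from keratinocytes (KCs) and dendritic epidermal T cells (DETCs) of the flank epidermis of female mice aged 8 weeks. KCs were sorted as live MHC-II-, CD45-, langerin-, c-kit- cells and DETCs as live MHC-II-, CD45+, langerin-, c-kit- cells, so no T cell receptor was part of the DETC gate. The labels put 3 WT and 3 LC-/- libraries among the KCs, and 3 WT and 2 LC-/- libraries among the DETCs. LC-/- animals carried the huLangerin-DTA transgene, in which the human langerin gene's regulatory sequence drives diphtheria toxin A in LCs, and they lack these cells from birth. WT animals were littermates without LC loss, and all 4 groups shared age, sex and tissue. Libraries are written W1 to W3 (WT) and L1 to L3 (LC-/-) after the numbers in their labels, and the DETCs have no L1. By the study's description, libraries of a group are different animals, and the labels do not say whether a number shared by a KC and a DETC library is 1 mouse.

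Heparan sulfate is a long sugar chain built on core proteins such as syndecans, glypicans and perlecan. After the backbone is made, N-deacetylase/N-sulfotransferases swap acetyl for sulfate on glucosamine, the epimerase turns glucuronic into iduronic acid, and sulfotransferases add sulfate at the 2-O, 6-O and, most rarely, 3-O positions. The pattern that results decides which growth factors, chemokines and protease inhibitors a chain can bind, and in the epidermis such chains cover keratinocytes and fill the basement membrane.

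The 3-O-sulfotransferases, on which the results turn, share a sulfotransferase domain. In GRCm38 coordinates, Hs3st1 lies at chr5:39613935-39755475 on the minus strand with its 933 coding bases in 1 exon. Hs3st3b1 lies at chr11:63885792-63922290 on the minus strand and Hs3st3a1 at chr11:64435332-64522841 on the plus strand, each with 2 coding exons. Hs3st6 lies at chr17:24752988-24758684 on the plus strand. The coding sequences of Hs3st3a1 and Hs3st3b1 were 90.4% identical over 1089 aligned bases and held an identical run of 401 bases, whereas the other pairs of the 4 genes were 69.8% to 76.3% identical. A window of 60 coding bases shows this likeness. Capitals mark the 38 positions that are the same in all 4 genes, and the sequences are GENCODE coding sequence read 5′ to 3′ (Hs3st1 chr5:39615067-39615126, Hs3st3a1 chr11:64436482-64436541, Hs3st3b1 chr11:63921419-63921478, Hs3st6 chr17:24753354-24753413).
Hs3st1: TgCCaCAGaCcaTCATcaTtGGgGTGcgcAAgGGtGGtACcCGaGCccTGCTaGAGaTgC
Hs3st3a1: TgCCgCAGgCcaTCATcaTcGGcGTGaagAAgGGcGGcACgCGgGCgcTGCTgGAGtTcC
Hs3st3b1: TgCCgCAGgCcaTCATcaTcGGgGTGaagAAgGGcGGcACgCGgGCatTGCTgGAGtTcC
Hs3st6: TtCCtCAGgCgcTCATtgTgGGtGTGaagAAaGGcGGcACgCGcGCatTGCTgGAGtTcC
In this window Hs3st3a1 matched Hs3st3b1 at 57 of 60 bases, Hs3st6 at 50 and Hs3st1 at 45. Of the 75-base stretches in the exons of Hs3st3a1, 8.823% also occurred in Hs3st3b1, so reads of the pair could in part be split between them or lost. Hs3st3a1 further overlaps the antisense gene F930015N05Rik over 1295 exonic bases. That gene had 0 to 6.55 normalized counts per library. Among the other enzymes, Hs6st1 overlaps the antisense gene Gm37335 over 447 exonic bases and Glce the same-strand gene Mir5133 over 77. The counting was not stated to use strand.

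The sequence just before the start of Hs3st1 and of Hs3st3b1 is shown because the results below turn on these genes. Each line gives 250 bases that end at the base before the RefSeq start (GRCm38.p6, minus strand, Hs3st1 chr5:39644632-39644881 and Hs3st3b1 chr11:63922285-63922534). The RefSeq start of Hs3st1 lies inside the longer GENCODE gene. Capitals mark CCAAT or GGGCGG on either strand.
Hs3st1: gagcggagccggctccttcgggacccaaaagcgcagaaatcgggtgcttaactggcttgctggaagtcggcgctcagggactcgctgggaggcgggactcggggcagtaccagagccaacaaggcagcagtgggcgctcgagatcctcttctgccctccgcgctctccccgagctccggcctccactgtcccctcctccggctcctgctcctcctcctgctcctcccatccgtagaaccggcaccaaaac
Hs3st3b1: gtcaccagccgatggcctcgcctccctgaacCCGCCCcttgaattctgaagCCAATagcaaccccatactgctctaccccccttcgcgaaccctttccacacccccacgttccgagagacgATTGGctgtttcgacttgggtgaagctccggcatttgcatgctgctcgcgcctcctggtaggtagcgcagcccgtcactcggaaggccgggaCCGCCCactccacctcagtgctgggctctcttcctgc
Hs3st3b1 held CCAAT at 199 and 129 bases and GGGCGG at 219 and 37 bases before the start, counted to the first base of each match, and the window of Hs3st1 held neither of them, nor the TATA box letters TATAAA, the AP-1 letters TGANTCA or the E-box letters CACGTG. Over 32544 RefSeq promoter windows of the same length, 33.8% held CCAAT, 33% GGGCGG, 12.3% the TATA box letters, 6.73% the AP-1 letters and 6.03% the E-box letters, with both strands searched. The window of Hs3st1 had 19 CpGs and 66.0% GC and that of Hs3st3b1 17 CpGs and 62.4% GC, against medians of 6 CpGs and 52.4%. These matches describe letters and not bound sites.

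Values are read counts per gene divided by a size factor per library, called normalized counts below. Libraries had 13491075 to 19750440 reads on genes, and 3 reads, the limit that a count of 0 allows, were 1.52e-05% to 2.22e-05% of a library. Of the 10 enzymes, 9 entered the tests by exceeding 1 CPM in 2 or more libraries. Hs6st2 did not, with at most 3.15 normalized counts in any library, and Hs3st3a1 did so only in DETC libraries, so a higher value in DETCs was a condition of its being tested. Of the defining markers, Cd3e and Cd207 matched the labels. Cd3e had 24602 to 27726 normalized counts in DETCs and 0 to 10.5 in KCs, and Cd207, the langerin gene of LCs, was at 0 in the LC-/- KCs and at 0 and 4.42 in the LC-/- DETCs, against 6.15 to 46.7 in WT libraries. A list of 14 LC markers separated the genotypes less clearly. Of 10 tested, 3 were lower in LC-/- KCs and 4 in LC-/- DETCs, and none was higher. Over all genes, 1.85% were lower in KCs and 0.430% in DETCs. The summed list overlapped in KCs, at 4244 to 5309 in WT and 3975 to 5167 in LC-/- libraries. In DETCs it was 2441 to 2940 in WT and 2169 to 2368 in LC-/- libraries. DETC libraries also held keratinocyte transcripts. All 24 keratinocyte markers were detected there, with a summed level of 123716 to 148508 in WT and of 129499 (L3) and 206525 (L2) in LC-/- DETCs, against 756975 to 813467 in KCs. As a median over the markers, DETC libraries stood at 15.0% (W1), 15.3% (W2), 18.1% (W3), 24.3% (L2) and 16.2% (L3) of the KC level of the same genotype. Normalized counts of 21 T cell markers in KCs summed to 375 to 678. Of 10 mast cell markers, whose cells make the heparin form of the chain, 6 including Cpa3 were at 0 in every library, while Kit, whose protein was gated out, had 294 to 573 normalized counts in DETCs and 5.12 to 11.6 in KCs.

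**Figure D1:**
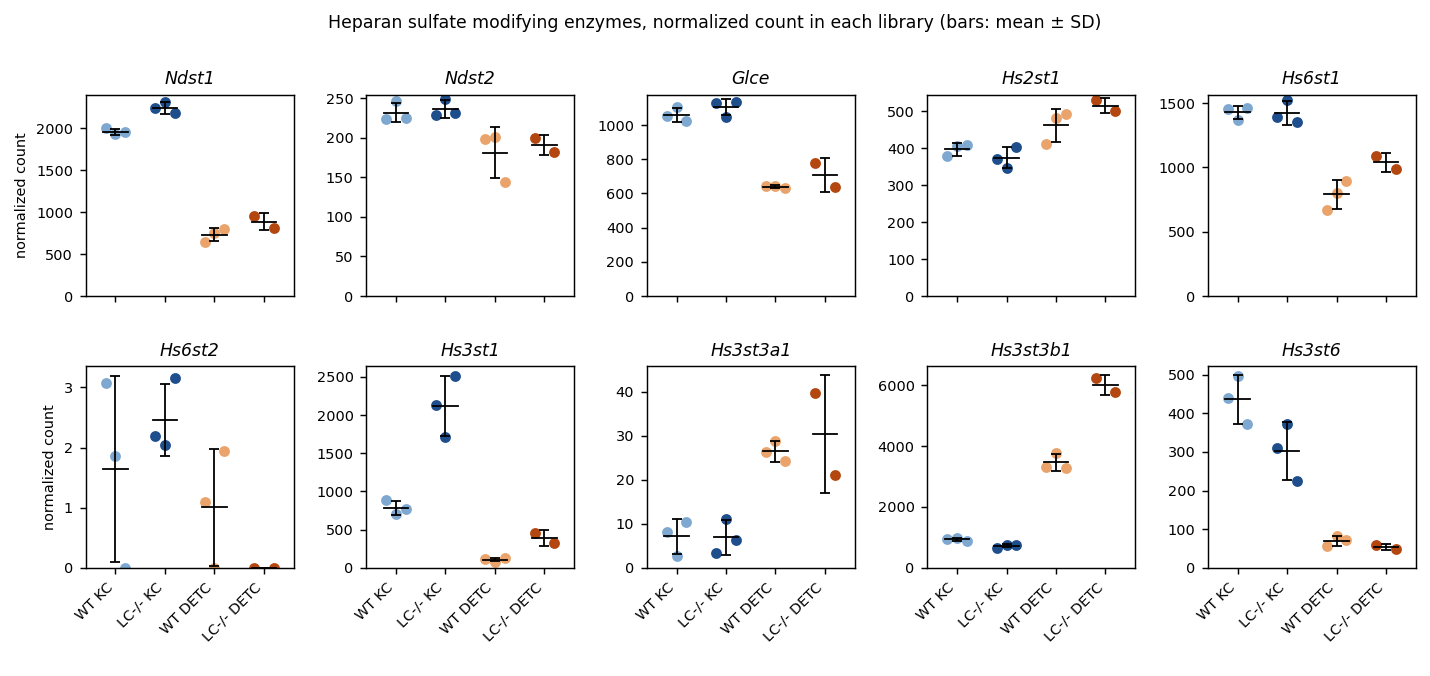
Normalized count (vertical axes, each from 0) of the 10 enzymes in every library of the 4 groups; points are libraries and bars the mean ± SD. Hs3st3b1 reached 3296 to 3786 in WT and 5778 and 6238 in LC-/- DETCs, above every KC library, whereas Hs3st1 and Hs3st6 were highest in KCs.

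KCs and DETCs differed in the levels of their 3-O-sulfotransferase transcripts. Hs3st1, whose product is best known for the antithrombin-binding site, and Hs3st6 were lower in DETCs than in KCs, and Hs3st3b1, whose product makes the form of the chain bound by herpes simplex glycoprotein D, was higher. Leaving aside Hs3st3a1, 7 of the 8 enzymes above 1 CPM in both populations passed an adjusted p of 0.05 (limma) in WT DETCs against WT KCs, 1 higher and 6 lower. The background was high, since 76.0% of all 14419 genes passed, 41.0% higher and 35.1% lower, so the count says little about the family, and the sizes are given instead. In bulk RNA, fewer cells of a type and less RNA per cell cannot be told apart.

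Hs3st3b1 had 955, 987 and 882 normalized counts in WT KCs and 3326, 3786 and 3296 in WT DETCs. The groups did not overlap. The difference was 1.88 on the log2 scale of normalized count plus 1 (SE 0.08, adjusted p = 2.31e-08), a 3.68-fold higher level. In LC-/- mice, where KCs had 662, 762 and 745 and DETCs 6238 and 5778, the same comparison gave 3.05 (SE 0.10, adjusted p = 1.47e-06), or 8.31-fold.

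Hs3st1 had 887, 709 and 766 normalized counts in WT KCs and 119, 80.9 and 124 in WT DETCs, with no overlap. It was lower in DETCs by a log2 difference of -2.87 (SE 0.17, adjusted p = 2.21e-07). In LC-/- mice the values were 2136, 1715 and 2505 in KCs against 461 and 321 in DETCs, a difference of -2.44 (SE 0.21, adjusted p = 8.14e-05). This comparison of populations did not use the genotype contrast by which the gene was picked.

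Hs3st6, another 3-O-sulfotransferase, went the same way as Hs3st1. It had 439.6, 496 and 371 in WT KCs against 55.7, 81.7 and 71.0 in WT DETCs, a log2 difference of -2.64 (SE 0.17, adjusted p = 4.41e-07). In LC-/- mice the difference was -2.44 (SE 0.25, adjusted p = 1.74e-04). Hs3st3a1, the close relative of Hs3st3b1, was rare: 2.78 to 11.2 normalized counts in KCs and 21.0 to 39.8 in DETCs. Since it entered only through its DETC values, its log2 differences of 1.90 (SE 0.42) in WT and 2.04 (SE 0.51) in LC-/- mice are a description. Hs3st2, Hs3st4 and Hs3st5, the other 3-O-sulfotransferases, had at most 3.88 normalized counts in any library. At this depth neither they nor Ndst3, Ndst4 and Hs6st3 could be compared, the last of them with at most 6.80 and the Ndst pair at 0.

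Apart from Hs6st2, the enzymes that act before 3-O-sulfation were detected in every library. Ndst1, the main N-sulfotransferase of most tissues, had 1998, 1927 and 1948 in WT KCs and 641, 748 and 794 in WT DETCs, a log2 difference of -1.43 (SE 0.09, adjusted p = 2.76e-07). It was lower in LC-/- DETCs too, by -1.34 (SE 0.10, adjusted p = 3.73e-05). Glce, the epimerase, differed by -0.73 (SE 0.07, adjusted p = 5.67e-06) in WT and by -0.64 (SE 0.11, adjusted p = 0.00212) in LC-/- mice. Hs6st1, the main 6-O-sulfotransferase here, had 1452, 1371 and 1463 in WT KCs and 672, 805 and 898 in WT DETCs, a difference of -0.86 (SE 0.10, adjusted p = 3.92e-05). In LC-/- mice its difference was -0.45 (SE 0.09, adjusted p = 0.00504).

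Ndst2, best known from the heparin of mast cells, and Hs2st1, the 2-O-sulfotransferase, differed least. Ndst2 had 224 to 246 in WT KCs and 144 to 201 in WT DETCs, at -0.37 (SE 0.14, adjusted p = 0.0404), and that call was lost without KC W1, W2 or W3, or DETC W3 (adjusted p = 0.0666 to 0.12), and with eBayes without trend (adjusted p = 0.062). In LC-/- mice it was at -0.30 (SE 0.13, adjusted p = 0.0677). Hs2st1 was at 0.21 (SE 0.09, adjusted p = 0.0634) in WT mice, where it passed only without DETC W1 (adjusted p = 0.0104), and at 0.46 (SE 0.11, adjusted p = 0.00879) in LC-/- mice, lost without DETC L2 (adjusted p = 0.0574) and with quantile values (0.23, adjusted p = 0.0909). In the LC-/- comparison 7 of these 8 enzymes passed, 2 higher and 5 lower, against 70.2% of all genes (38.1% higher, 32.1% lower).

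**Figure D2:**
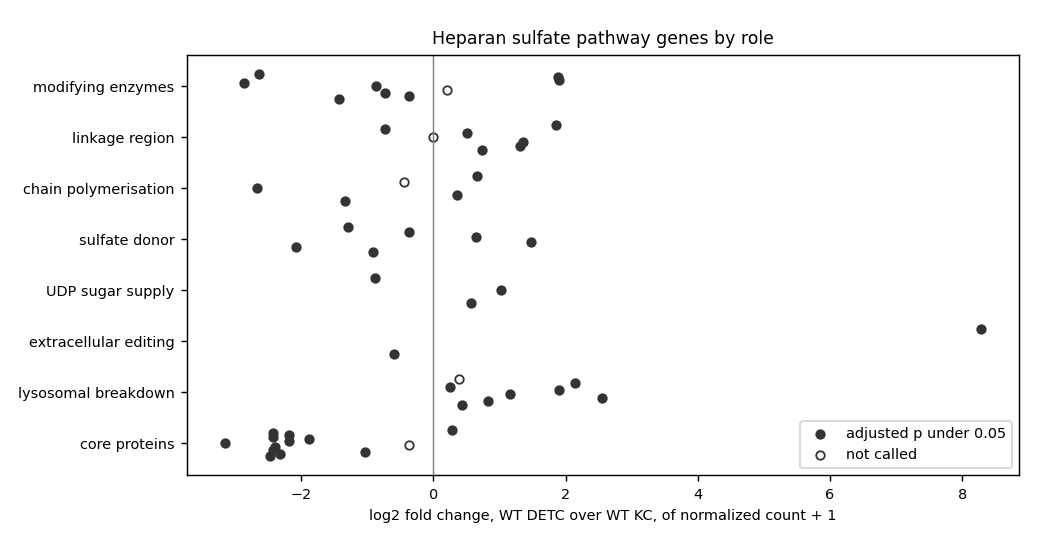
Log2 fold change of normalized count plus 1, WT DETC over WT KC (horizontal axis), for the 9 tested modifying enzymes and 44 other heparan sulfate genes by role; filled points passed an adjusted p of 0.05. Hpse stands apart at 8.29, 11 of 13 core proteins passed as lower in DETCs, and Hs3st3a1 at 1.90 was tested only because of its DETC values.

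Levels were set side by side between genes as normalized counts per kb of exon. In WT KCs, Hs3st1 (353 ± 41.0, SD, n = 3) and Hs3st6 (321 ± 46.2) led and overlapped. Hs6st1 (258 ± 9.06), Ndst1 (237 ± 4.40), Hs3st3b1 (192 ± 11.0) and Glce (155 ± 5.84) followed without overlap, and Ndst2 (51.0) and Hs2st1 (48.5) overlapped below them. Hs3st3a1 (1.81) and Hs6st2 (0.210) were at the bottom. In WT DETCs, Hs3st3b1 (706 ± 56.0) stood alone above Hs6st1 (143 ± 20.4), Glce (93.8 ± 1.02) and Ndst1 (87.9 ± 9.53), whereas Hs3st6 (51.1 ± 9.64) and Hs3st1 (48.5 ± 10.6) overlapped with Hs2st1 (56.4 ± 5.38) far below.

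In LC-/- KCs, Hs3st1 (950.1 ± 177) was the highest enzyme without overlap, and Ndst1 (271), Hs6st1 (257), Hs3st6 (222), Glce (162) and Hs3st3b1 (147) formed an order in which each overlapped the next. In LC-/- DETCs, Hs3st3b1 (1223 ± 66.2, n = 2) again led, ahead of Hs6st1 (188) and Hs3st1 (175), whose libraries overlapped. The place of Hs3st1 is limited by the keratinocyte transcripts in these libraries. Their marker level gives 515 (L2) and 343 (L3) normalized counts of Hs3st1, against 461 and 321 measured.

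Summed over the 4 3-O-sulfotransferases, the level per kb was 918, 885 and 799 in WT KCs and 1322, 1201 and 1441 in LC-/- KCs. Hs3st1 made up 43.3%, 35.9% and 43.0% of this sum in WT KCs and 72.4%, 64.1% and 77.9% in LC-/- KCs, while Hs3st6 took 34.2% to 41.3% and then 11.4% to 22.8%. Hs3st3b1 accounted for 21.2% to 22.7% of the sum in WT KCs, compared with 10.2% to 12.9% in LC-/- KCs. WT DETC libraries summed to 778, 875 and 785 and LC-/- DETC libraries to 1531 and 1361, and Hs3st3b1 held 85.5% to 88.1% of these sums in WT and 82.9% and 86.5% in LC-/- libraries. These sums contain Hs3st1 and are given as a description.

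**Figure D3:**
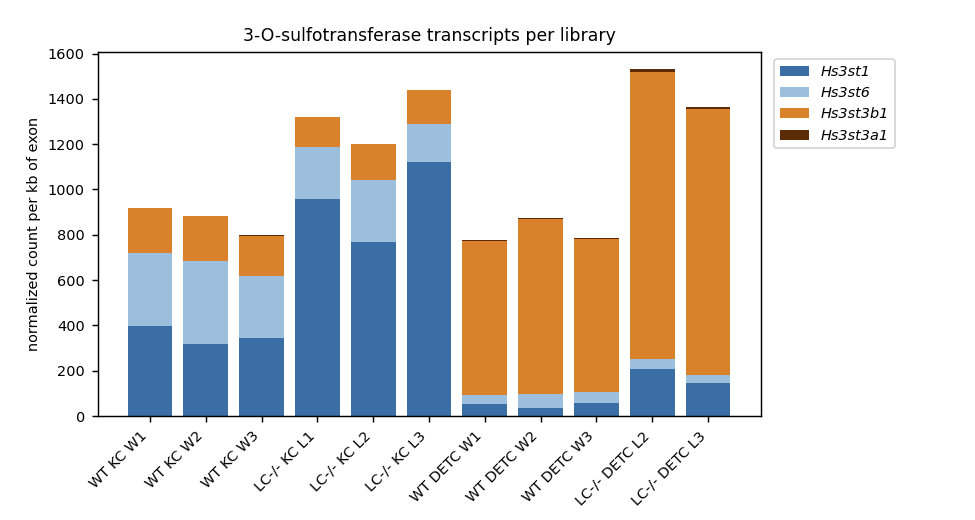
Normalized count per kb of exon (vertical axis) of the 3-O-sulfotransferases, stacked for each of the 11 libraries. Hs3st1 fills 64.1% to 77.9% of the LC-/- KC bars and 35.9% to 43.3% of the WT KC bars, and Hs3st3b1 fills 82.9% to 88.1% of the DETC bars.

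Between genotypes, Hs3st1 had the largest difference of the family in both populations, by the choice of the family. Its LC-/- to WT ratio of means was 2.69 in KCs (787 ± 91.3 against 2119 ± 395, SD, n = 3 each) and 3.62 in DETCs (108 ± 23.7, n = 3, against 391 ± 99.4, n = 2). No LC-/- library overlapped a WT library in either population. On the log2 scale the differences were 1.42 (SE 0.16) in KCs and 1.85 (SE 0.24) in DETCs, and the 2 differed by 0.43 (SE 0.28), all without a test.

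Hs3st3b1 was lower in LC-/- KCs and higher in LC-/- DETCs. In KCs, where its values were 955, 987 and 882 in WT and 662, 762 and 745 in LC-/- libraries, the ranges did not overlap and the log2 difference was -0.38 (SE 0.07, adjusted p = 0.0464), a ratio of 0.768. That call passed in 8 of 15 alternative fits and in none of the 6 that left out a library (adjusted p = 0.0605 to 0.147). Those 6 fits also called fewer of all genes than the 775 higher and 267 lower of the main fit. They called 5 and 0 at the fewest (without L1) and 552 and 169 at the most (without L2). The Hs3st3b1 difference in them was -0.43 to -0.32. In DETCs the values were 3326, 3786 and 3296 in WT and 6238 and 5778 in LC-/- libraries, which did not overlap either, and the difference was 0.79 (SE 0.10, adjusted p = 0.0136), a ratio of 1.73. It was no longer called without DETC W3 (adjusted p = 0.0656) or DETC L2 (adjusted p = 0.0772), or with eBayes without trend (adjusted p = 0.179).

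The difference between these 2 effects was itself tested as an interaction. For Hs3st3b1 it was 1.17 (SE 0.13, adjusted p = 0.00257), and it passed in all 21 alternative fits, with values of 1.02 to 1.24 and adjusted p up to 0.0355. Among the other 7 enzymes tested for it none passed (limma), the nearest being Hs6st1 at 0.41 (SE 0.15, adjusted p = 0.322), which was the 1 of them with an unadjusted p below 0.05, and edgeR and DESeq2 called none of the 7 either. Of all genes, 0.798% passed the interaction, 0.617% with a positive and 0.180% with a negative sign (89 and 26 genes), a balance that became 70 and 48 with quantile values and 145 and 182 with the keratinocyte share subtracted.

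**Figure D4:**
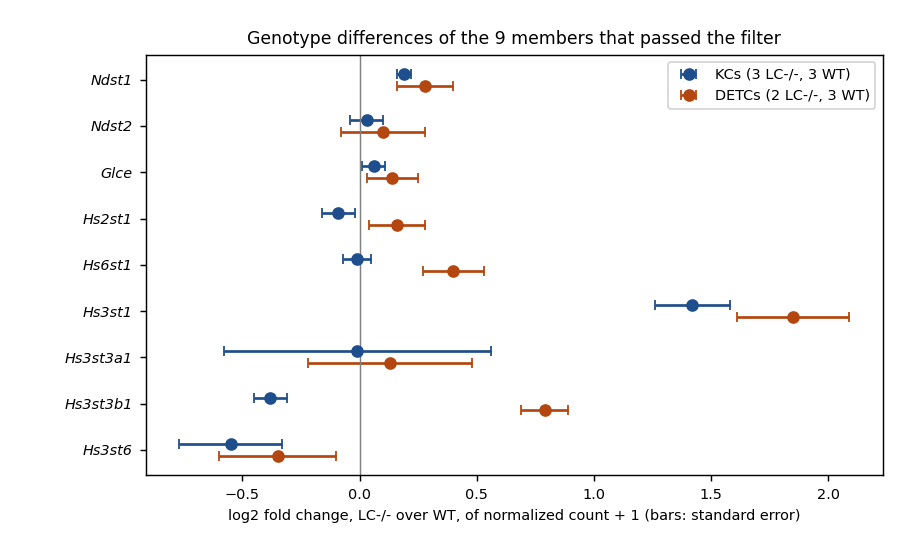
Log2 fold change of normalized count plus 1, LC-/- over WT (horizontal axis), for the 9 tested enzymes in KCs and DETCs; bars are the standard error. Hs3st3b1 lies at -0.38 in KCs and 0.79 in DETCs, and Hs3st1, shown as a description, at 1.42 and 1.85.

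Ndst1 was the other enzyme called between genotypes in KCs. It had 1998, 1927 and 1948 in WT and 2234, 2314 and 2175 in LC-/- libraries, a small difference of 0.19 (SE 0.03, adjusted p = 0.0415) with no overlap. The call was kept in 3 of 15 alternatives (adjusted p = 0.0413 to 0.486 over all 15) and in none of the 6 that left out a library (adjusted p = 0.056 to 0.133). Those 6 fits, which called fewer of all genes, gave Ndst1 differences of 0.17 to 0.22. Hs3st6 had 439.6, 496 and 371 in WT and 311, 372 and 224 in LC-/- KCs, with overlapping ranges and a difference of -0.55 (SE 0.22, adjusted p = 0.189). DESeq2 called it lower (adjusted p = 0.0162), as did limma without a filter (adjusted p = 0.0323). Glce, Ndst2, Hs2st1 and Hs6st1 lay between -0.09 and 0.06 in KCs with adjusted p of 0.491 to 0.973. Apart from Hs3st1, then, 2 of 8 enzymes passed in KCs and 1 of 8 in DETCs, against 7.23% of all genes in KCs (5.37% higher, 1.85% lower) and 3.56% in DETCs (3.13% higher, 0.430% lower), and nothing is read from these shares because the family was picked on this contrast.

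In DETCs, Hs6st1 had 672, 805 and 898 in WT and 1091 and 988 in LC-/- libraries, without overlap but with a difference of 0.40 that missed the threshold (SE 0.13, adjusted p = 0.151). Ndst1 and Hs2st1 did not overlap there either, whereas Ndst2, Glce, Hs3st3a1 and Hs3st6 did. The share of all genes without overlap was not determined. Ndst1 was at 0.28 (SE 0.12, adjusted p = 0.269), Hs2st1 at 0.16 (adjusted p = 0.516), Glce at 0.14 (adjusted p = 0.535) and Hs3st6 at -0.35 (SE 0.25, adjusted p = 0.501). Hs3st3a1 and Ndst2 were at 0.13 and 0.10 (adjusted p = 0.883 and 0.831). With 2 LC-/- libraries, a miss does not show that these levels were alike.

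The keratinocyte transcripts in DETC libraries bear on the enzymes in unequal measure. Hs3st1 in DETCs stood at 15.1%, 10.3% and 15.8% of its WT KC mean and at 21.8% (L2) and 15.1% (L3) of its LC-/- KC mean. The marker share of each library times the KC mean gives 118, 120.3, 142, 515 and 343 normalized counts, against measured values of 119, 80.9, 124, 461 and 321. The DETC values of Hs3st1 were thus within 1 normalized count of that level in W1 and below it in W2, W3, L2 and L3. With that share subtracted, and values below 0 set to 0, Hs3st1 was at 0 in 4 of 5 DETC libraries and below 1 normalized count in W1, so that no genotype difference in DETCs could be read.

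Hs3st6 in DETCs also lay near the marker share, at 12.8%, 18.8% and 16.3% (WT) and 19.9% and 15.7% (LC-/-) of KCs. Hs3st3b1 did not: the share gives 117 to 176 normalized counts, against 3296 to 6238 measured. Its DETC genotype difference with the share subtracted was 0.82 (SE 0.09), although no longer called (adjusted p = 0.0902), and the interaction was 1.20 (SE 0.12, adjusted p = 0.00241). Ndst1 stood at 32.7% to 42.6% of KCs, Hs6st1 at 47.1% to 76.7%, Glce at 58.0% to 70.7%, Ndst2 at 62.1% to 86.6% and Hs2st1 at 104% to 141%. Subtraction moved the WT population difference of Ndst1 from -1.43 to -2.26 and that of Hs6st1 from -0.86 to -1.36. It moved that of Hs3st1 from -2.87 to -9.43 (from -2.44 to -11.03 in LC-/- mice) and that of Hs3st6 from -2.64 to -7.42 (from -2.44 to -8.21), sizes set by the pseudocount because each gene was then at 0 in 4 of 5 DETC libraries. Among LC-/- mice, Hs2st1 lost its call (0.23, adjusted p = 0.0968) and Ndst2 gained one (-0.71, adjusted p = 0.00362).

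**Figure D5:**
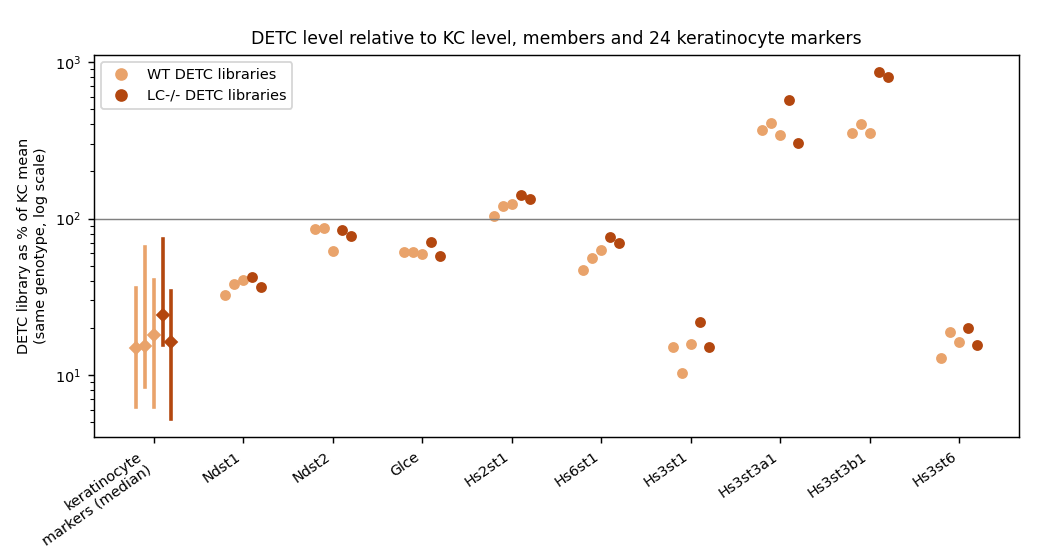
Level in each DETC library as a percent of the KC mean of the same genotype (log axis) for the 9 tested enzymes; diamonds are the median of 24 keratinocyte markers and vertical lines their range. Hs3st1 (10.3% to 21.8%) and Hs3st6 (12.8% to 19.9%) lie with the marker medians (15.0% to 24.3%), and Hs3st3b1 lies at 350.1% or above.

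The rest of the heparan sulfate pathway differed between the populations in both directions. Of 47 listed genes 44 were tested, and 20 were higher and 20 lower in WT DETCs than in WT KCs, with a median of -0.18 against 0.07 over all genes, of which 41.0% were higher and 35.1% lower. Several roles were mixed: linkage region genes were 5 higher and 1 lower, chain polymerisation 2 and 2, and sulfate donor 2 and 4. UDP sugar supply had 2 higher and 1 lower, and extracellular editing 1 and 1. Of 13 core proteins tested, which carry the chains, 11 were lower in DETCs and 1 higher, beside the same 35.1% and 41.0% of all genes. Sdc1 (-2.47, SE 0.09, adjusted p = 1.20e-08) and Sdc4 (-2.43, SE 0.10, adjusted p = 1.89e-08), syndecans of the cell surface, had means of 13466 and 29050 in WT KCs and 2446 and 5396 in WT DETCs. Hspg2 (perlecan) was lower by -2.43, Col18a1 (collagen XVIII) by -2.42 and Gpc3 (a glypican) by -3.15. Extl1, of the chain-polymerising family, was lower by -2.66 (SE 0.13). The means of Sdc1, Sdc4, Hspg2, Col18a1, Gpc3 and Extl1 in WT DETCs stood beside a keratinocyte share of 15.0% to 18.1%, whose part in these values was not tested.

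Genes that break the chains down included large differences in the other direction. Hpse, the heparanase that cuts heparan sulfate outside the cell, had 12.3 to 18.6 normalized counts in WT KCs and 4094 to 6692 in WT DETCs, a difference of 8.29 (SE 0.19, adjusted p = 6.60e-10). Of 8 lysosomal enzymes, 7 were higher in WT DETCs, among them Sgsh (2.55, SE 0.19), which removes N-sulfate, Gusb (2.14, SE 0.15), a glucuronidase, and Naglu (1.90, SE 0.17), a glucosaminidase. All 8 were higher in LC-/- mice, and over all genes 41.0% were higher in WT and 38.1% in LC-/- DETCs. Pxylp1, a phosphatase of the linkage region, was higher by 1.86 and Slc35b2, which carries the sulfate donor into the Golgi, by 1.48.

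Between genotypes none of these 44 genes passed with limma, in KCs, in DETCs or in the interaction. At an unadjusted p below 0.05 there were 2 higher and 7 lower in KCs, 4 and 6 in DETCs, and 1 and 1 in the interaction. On the recovered reads, edgeR called 3 lower in KCs and none in DETCs, and DESeq2 called 3 lower in KCs and, in DETCs, 1 higher and 2 lower, and both called none in the interaction. Their median difference was -0.12 in KCs and -0.04 in DETCs, beside -0.01 and 0.02 over all genes. Of 14 tested enzymes of the sister chains chondroitin and dermatan sulfate, 1 passed in KCs, Chst12, a chondroitin 4-O-sulfotransferase named after its value was seen, with 75.8 ± 8.03 in WT and 38.6 ± 3.01 in LC-/- KCs (-0.95, SE 0.13, adjusted p = 0.0255), a share near the 7.23% of all genes. There edgeR and DESeq2 each called 1 higher and 1 lower. None passed in DETCs, where an unadjusted p below 0.05 was reached by 2 higher and 2 lower, edgeR called none and DESeq2 1 lower.

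Among the genes whose pattern over the 11 libraries was most like that of Hs3st1 (Pearson's r of log2 values, 14036 genes compared) were Sgms2 (0.996), a sphingomyelin synthase, Phlda1 (0.994), F3 (0.992), the tissue factor of coagulation, and Slc1a1 (0.992), a glutamate transporter. These 4 were higher in LC-/- than in WT libraries of both populations on average, and lower in DETCs than in KCs of the same genotype. Both directions follow from the choice, since the genes were ranked by likeness to Hs3st1, itself picked for its genotype difference. Their DETC means stood at 13.6% (F3) to 29.0% (Phlda1) of the KC means in WT and at 16.1% (Slc1a1) to 30.0% (Phlda1) in LC-/- mice, beside the keratinocyte marker share of 15.0% to 24.3%, whose part was not tested. Sgms2, for example, had means of 941 and 2387 in WT and LC-/- KCs and of 188 and 538 in WT and LC-/- DETCs. These points share libraries and the split between KCs and DETCs, so the values describe likeness over 4 groups.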

How the data were processed

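Poly-A RNA of sorted KCs and DETCs was sequenced as paired reads. After trimming (cutadapt) and hisat2 alignment to GRCm38, the authors obtained gene counts by featureCounts and scaled each library by its DESeq2 size factor. The deposited values are thus a signal per gene. Divided by a step per library that was found from the values themselves, 100% of them were whole reads within 0.01 reads. Tool versions and strand setting are not given in the sources used here. Log2(value + 1) was tested two-sided in R 4.3.3 by limma 3.58.1, using eBayes with trend and p-values adjusted after Benjamini-Hochberg over 14419 genes, after a filter of CPM above 1 in at least 2 libraries. DESeq2 1.42.0, edgeR 4.0.16, pseudocounts of 0.5 and 8, other filters, quantile values, eBayes without trend, 1 fit over 4 groups, a replicate block and omission of each library were alternatives. Subtraction of the keratinocyte share (the median over 24 markers of DETC value over KC mean, with results below 0 set to 0) was added after seeing the data. The scripts were tested on simulated data. For 52403 of 52550 identifiers a gene model was found in GENCODE mouse release 21. RefSeq promoters of 8 enzymes were used, with Ndst1 left out by choice, and no protein sequence was used. The enzymes and lists were chosen with earlier results of these data known. Named were all 10 enzymes, up to 6 pathway genes per direction by size of change among those called with a mean of at least 10, and the 5 genes most like Hs3st1, of which 1 is not reported here. The floor of 3 reads covers counting error only, whereas the SDs and standard errors come from the spread between libraries.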

Additional observations from a re-analysis of the deposited data

Results flagged for a closer look

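Hs3st3b1 was singled out because its difference between genotypes was not the same in the 2 populations. The interaction was 1.17 on the log2 scale (SE 0.13, adjusted p = 0.00257, limma), with lower values in all 3 LC-/- KC libraries than in any WT KC library and higher values in both LC-/- DETC libraries than in any WT DETC library.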

How the results depend on the processing

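The counts of enzymes called between populations stayed at 7 or 8 (WT) and 8 or 9 (LC-/-) of 9 under the alternatives that kept all libraries, and at 7 to 9 and 6 to 8 when a library was left out, with Hs3st3a1 counted although only its DETC values passed the filter. The interaction count stayed at 1. In KCs, the count of 2 between genotypes became 1 with edgeR, 1 with quantile values, 1 with 1 fit over 4 groups, 0 without trend, and 0 to 0 over the omissions of a library. It stayed at 2 with DESeq2 and without a filter, but there Hs3st6 took the place of Ndst1. In DETCs, the count of 1 became 0 without trend, 0 with the keratinocyte share subtracted, and 0 to 1 over the omissions. The causes were not tested.

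Single enzymes gave 756 values, among them untested genotype values of Hs3st1 (15 in KCs, 15 in DETCs, 21 in the interaction). The latter have no threshold and counted as kept if direction held and the shift was below the SD within groups. Of the 756, 690 kept direction and, if tested, side of the threshold, 33 lost and 5 gained the call, and 28 changed sign. Of these 28, 26 were tested values that passed no threshold. With the keratinocyte share subtracted, the sign changed for Hs3st1 in DETCs (-0.18) and in the interaction (-1.60), both set by values that became 0 and with no direction to be read. It also changed for Hs2st1 in the WT populations (-0.00), and in the interaction for Ndst1 (-0.12), Glce (-0.01) and Hs3st6 (-0.79). Quantile values gave Glce -0.01 and Hs3st3a1 0.01 in KCs. Omitting a library gave in KCs Ndst2 -0.01 to 0.07, Hs6st1 -0.06 to 0.03 and Hs3st3a1 -0.49 to 0.36, in DETCs Ndst2 -0.06 to 0.18 and Hs3st3a1 -0.32 to 0.57, and in the interaction Ndst1 -0.03 to 0.20, Ndst2 -0.09 to 0.15, Glce -0.06 to 0.23, Hs3st3a1 -0.30 to 0.62 and Hs3st6 -0.01 to 0.36.

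Libraries with the same label number need not be 1 animal. Deviations of same-numbered libraries correlated at -0.0539 (W1), 0.0666 (W2), 0.117 (W3), 0.143 (L2) and 0.117 (L3) over 14416 genes, best with their own number for all but W1. With the number as a replicate block, 8, 8 and 1 enzymes were called in the WT, LC-/- and interaction comparisons, Hs3st3b1 had an interaction of 1.11 (adjusted p = 0.0258), and Hs3st3a1 had one of -0.23. The block cut the interaction calls over all genes from 89 higher and 26 lower to 17 and 1.

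Over all genes, quantile values turned 5906 higher and 5059 lower calls in the WT populations into 4693 and 6662, 5497 and 4629 in the LC-/- populations into 4194 and 6408, 775 and 267 in KCs into 562 and 328, and 452 and 62 in DETCs into 107 and 41, and 89 and 26 in the interaction into 70 and 48. Subtraction gave 5013 and 6138 (WT) and 4513 and 5898 (LC-/-) between populations, 145 and 182 in the interaction and none between genotypes in DETCs. Without trend, limma called 508 and 227 in KCs and none in DETCs. DESeq2 called 868 and 211 in DETCs and edgeR 1192 and 591 in KCs. Without KC L1, 5 genes were left in KCs. Depth limited Hs6st2 and Hs3st3a1, which had few reads in every library.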
